A study of Mus musculus with 4 samples.

Results

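The calponins and the smooth muscle contractile genes are described here across 4 arrays of sorted mouse bone marrow cells. The 9 members are Cnn1, Cnn2, Cnn3, Acta2, Tagln, Myh11, Myl9, Tpm1 and Tpm2, out of 19735 protein-coding genes named on the array. They were taken by gene name in the spot files, with every probe of each gene, which gave 17 of the 61307 probes that are not controls. The list was chosen from earlier results of these same arrays, which included the Cnn1 differences between days, so all values of the members are a description and support nothing.

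RNA was hybridised from 2 cell populations of C57BL6/J mice aged 7 weeks, each at 2 times, with 1 array per group. LSK cells lack lineage markers and carry Sca-1 and c-kit (Lin- Sca-1+ c-kit+), the marrow fraction in which blood stem cells and early progenitors lie. The CD45-negative sort was meant to hold marrow stroma, the stem cells' niche. The day 0 groups came from healthy control mice. The day 10 groups came from recipients that had received 700 cGy of radiation, described as sub-lethal, and 30000 LSK cells. The labels give CD45.2 for donors and CD45.1 for recipients and describe the stromal gate in one place as CD45.1-negative, so which form of CD45 was gated on is not certain. The labels do not say whether RNA was pooled from several mice. The day 10 groups differ from day 0 in irradiation, transplantation and time at once, and these cannot be told apart.

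With 1 array per group no difference has a test, a p-value or a standard error between mice. Levels are log2 signals relative to the 75th percentile of their own array. The error given after a value is that of the scanner software's error model for the spot, which covers neither mice nor sorts, and for a difference it is combined over both spots. A difference was counted when it reached 2-fold, which is a size and not a test. A gene with several probes is represented by the probe with the highest mean level among those with a usable spot on all 4 arrays. Levels of different probes are not set against each other. From 47.6% to 56.6% of probes were well above background on an array.

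In smooth muscle, myosin II motors pull on actin filaments, and phosphorylation of the regulatory light chain switches the motor on. Calponins bind actin and restrain the myosin ATPase, transgelin also binds actin filaments, and tropomyosins run along the filament and set which proteins reach it. Cnn1, Acta2, Tagln and Myh11 are used to recognise smooth muscle, while Cnn2, Cnn3, Tpm1 and Myl9 are also made by cells outside muscle. In marrow, such genes are expected in the walls of arterioles and in some stromal cells.

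The 3 calponins and Myl9 were each read by 1 probe of 60 bases. The first 30 bases of these probes show which stretch each value rests on, and no other gene's probe on the array shared more than 38 of 60 bases with any member's probe in an ungapped alignment over at least 30 bases.
Cnn1 probe: acacacgcattttggttttgcagtgactgg
Cnn2 probe: attggagtacactaggctttaaaatactgc
Cnn3 probe: ggcggaacgattctccaggacagccagctc
Myl9 probe: cttaggcttgtggagttgtctcagcacccc

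The 250 bases before the start of these same 4 genes were taken from the RefSeq table of GRCm38.p6, because Cnn1, Cnn2 and Cnn3 all stood higher at day 10 in CD45-negative cells. Capitals mark a CArG box, the motif that serum response factor binds in many smooth muscle genes, searched by its name's consensus. Its consensus reads the same on both strands.
Cnn1, chr9:22099003-22099252, plus strand: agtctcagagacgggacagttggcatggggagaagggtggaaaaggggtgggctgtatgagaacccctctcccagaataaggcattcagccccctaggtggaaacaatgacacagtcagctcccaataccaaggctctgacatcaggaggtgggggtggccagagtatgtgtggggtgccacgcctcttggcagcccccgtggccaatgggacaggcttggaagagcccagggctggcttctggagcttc
Cnn2, chr10:79988350-79988599, plus strand: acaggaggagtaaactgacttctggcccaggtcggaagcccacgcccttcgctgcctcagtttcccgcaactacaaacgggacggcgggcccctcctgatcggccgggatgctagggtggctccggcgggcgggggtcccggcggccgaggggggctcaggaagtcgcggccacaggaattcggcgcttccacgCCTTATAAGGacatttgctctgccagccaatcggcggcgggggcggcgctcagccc
Cnn3, chr3:121426291-121426540, plus strand: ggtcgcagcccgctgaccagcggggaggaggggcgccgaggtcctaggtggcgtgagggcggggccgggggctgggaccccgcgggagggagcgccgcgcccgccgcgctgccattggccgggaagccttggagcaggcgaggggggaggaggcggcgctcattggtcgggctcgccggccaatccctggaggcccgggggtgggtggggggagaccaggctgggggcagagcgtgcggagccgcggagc
Myl9, chr2:156775214-156775463, plus strand: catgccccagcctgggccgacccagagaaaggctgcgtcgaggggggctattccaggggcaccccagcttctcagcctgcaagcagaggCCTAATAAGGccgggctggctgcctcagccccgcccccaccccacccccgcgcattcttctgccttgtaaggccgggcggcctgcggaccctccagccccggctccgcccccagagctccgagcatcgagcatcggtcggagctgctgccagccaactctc

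The Cnn2 window held a box that begins 56 bases before the start, and the Myl9 window held one that begins 161 bases before it. Of the 7 members with an entry in that table, these 2 windows held a box, against 482 of 32851 windows of the same length (1.47%). The windows of Cnn1, Cnn3, Acta2, Tpm1 and Tpm2 did not hold an exact match to the consensus. Near matches were neither searched for nor marked, and the Acta2 window holds ccctatatgg and ccttgtttgg, which each miss the consensus by a base. The count therefore says nothing of boxes with a mismatch in these windows, or of boxes elsewhere. Tagln and Myh11 have no entry.

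Cnn1, calponin 1, the calponin of differentiated smooth muscle, had the widest range among the 7 members above background on all 4 arrays. Its level was -1.45 ± 0.16 in LSK cells at day 0 and 1.5 ± 0.14 at day 10, and -0.40 ± 0.15 in CD45-negative cells at day 0 and 2.20 ± 0.14 at day 10. Both day 10 arrays lay above both day 0 arrays, and within each day the CD45-negative array was the higher, an order that the spike-in shift described further on turned at day 0 (0.57). In LSK cells the difference between days was 2.95 ± 0.21, or 7.72-fold, which ranked 1 among the 12088 genes measured on both arrays. In CD45-negative cells it was 2.60 ± 0.21, or 6.06-fold, and ranked 111 among 10746 genes. CD45-negative cells exceeded LSK cells by 2.08-fold at day 0, a difference of -1.06 for LSK that was -0.68 and short of 2-fold with normexp, and by 1.63-fold at day 10. In sorted bulk RNA, more cells that express a gene and more RNA per cell cannot be told apart.

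Cnn2, calponin 2, is found in many cells that are not muscle, blood cells among them. Its level was 3.31 ± 0.14 and 3.12 ± 0.14 in LSK cells at days 0 and 10, and 1.24 ± 0.15 and 3.50 ± 0.14 in CD45-negative cells. The 3 levels other than that of CD45-negative cells at day 0 lay close together, and that array stood low. The difference between days was -0.19 ± 0.20 in LSK cells, no larger than the spot error, and 2.25 ± 0.20 in CD45-negative cells, or 4.77-fold. LSK cells were 4.18-fold higher than CD45-negative cells at day 0 and lower by a factor of 1.30 at day 10.

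Cnn3, calponin 3 or acidic calponin, binds actin in muscle and non-muscle cells. Levels were 3.08 ± 0.14 and 3.43 ± 0.14 in LSK cells at days 0 and 10, and 2.58 ± 0.14 and 3.73 ± 0.14 in CD45-negative cells. The day 10 arrays were again the 2 highest. The difference between days was 0.35 ± 0.20 in LSK cells and 1.16 ± 0.20, or 2.23-fold, in CD45-negative cells. All 3 calponins passed 2-fold in CD45-negative cells, where 25.6% of all 10746 genes also passed it upwards and 17.5% downwards. Of the 3, Cnn1 alone passed 2-fold in LSK cells, where 1.49% of 12088 genes passed it upwards and 2.23% downwards.

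**Figure D1:**
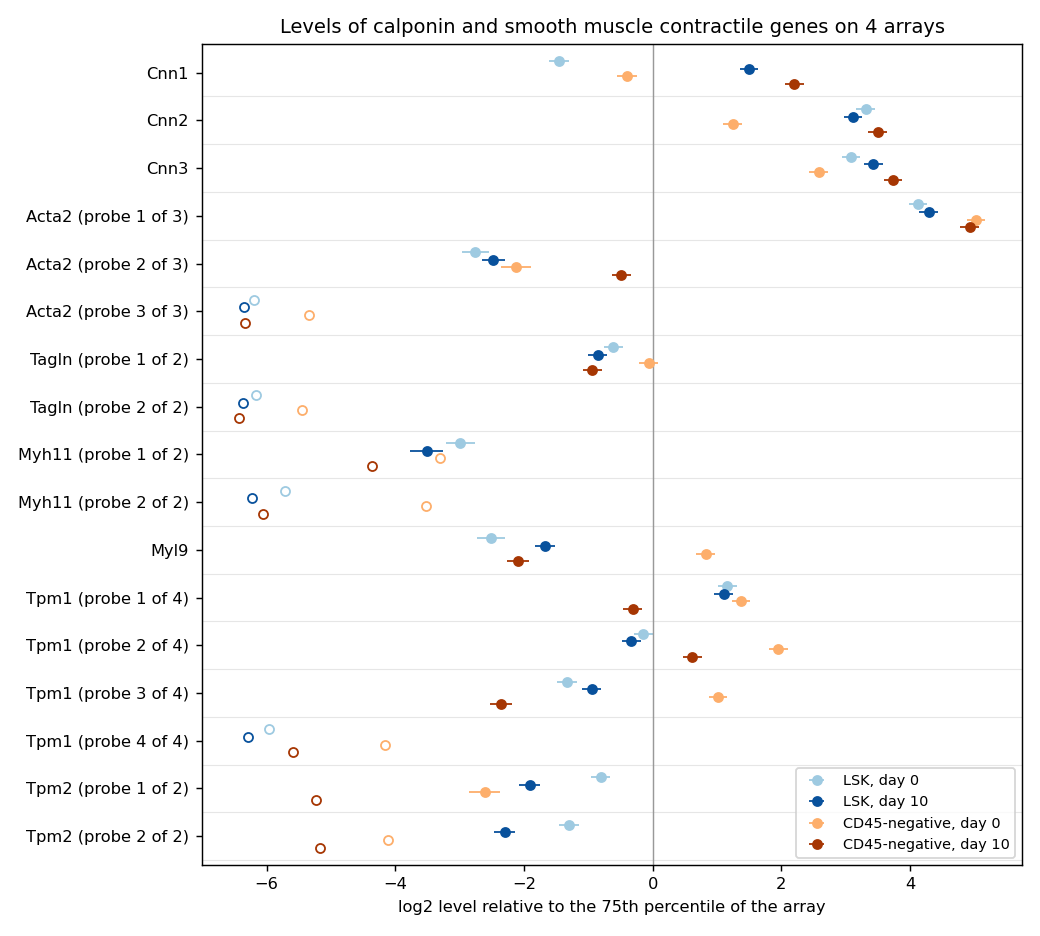
Level of each of the 17 member probes on each of the 4 arrays, as log2 signal relative to the 75th percentile of the array; bars are the scanner software's spot error and open circles are probes not well above background. Cnn1 ran from -1.45 in LSK cells at day 0 to 2.20 in CD45-negative cells at day 10, and Myl9 was highest, at 0.83, in CD45-negative cells at day 0.

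Acta2, smooth muscle alpha actin, was read by 3 probes that differed in what they showed. The brightest had levels of 4.12 ± 0.14 and 4.29 ± 0.14 in LSK cells at days 0 and 10, and 5.02 ± 0.14 and 4.93 ± 0.14 in CD45-negative cells. Neither population differed between days by more than the spot error (0.17 ± 0.20 and -0.10 ± 0.20), and CD45-negative cells were 1.87-fold higher than LSK cells at day 0 and 1.56-fold at day 10. The other two read low. The second gave -2.75 ± 0.21, -2.48 ± 0.18, -2.13 ± 0.23 and -0.49 ± 0.15 in the same order of arrays, a difference of 1.64 ± 0.28 between days in CD45-negative cells. The third was not well above background on any array. The brightest probe and the opening bases of the second are printed because their values diverge.
Acta2 probe 1: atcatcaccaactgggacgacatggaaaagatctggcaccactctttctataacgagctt
Acta2 probe 2: gttttgtggatcagcgcctccagttccttt

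Mammalian actins are nearly identical proteins with similar coding sequences, and probe 1 reads a coding stretch of actin. Other actins were bright on these arrays. Actb, cytoplasmic beta actin, had levels from 4.06 to 5.22. Whether other actin transcripts contribute to probe 1 was not tested, so Acta2 has no level here that its probes share.

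Tagln, transgelin or SM22 alpha, is an early marker of smooth muscle. Its brighter probe read -0.61 ± 0.15 and -0.85 ± 0.15 in LSK cells at days 0 and 10, and -0.06 ± 0.15 and -0.94 ± 0.15 in CD45-negative cells. CD45-negative cells at day 0 stood highest and the other 3 arrays close together. The difference between days was -0.24 ± 0.21 in LSK cells and -0.88 ± 0.21 in CD45-negative cells, both short of 2-fold. The second probe was not well above background on any array. Tagln2, its relative made by many blood cells, was 1.81 higher at day 10 in CD45-negative cells and 0.07 higher in LSK cells. No probe of Tagln3, the neuronal relative, was well above background on any array.

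Myh11, the heavy chain of smooth muscle myosin, was near background throughout. Its brighter probe was well above background in LSK cells alone, at -2.99 ± 0.22 on day 0 and -3.51 ± 0.25 on day 10, a difference of -0.52 ± 0.34. In CD45-negative cells it was not well above background at either day. As bounds, LSK cells were at least 1.12-fold higher at day 0 and at least 1.65-fold higher at day 10. These bounds set the LSK level against the dimmest detected signal of the other array and leave out the spot error. LSK minus CD45-negative cells was 0.31 ± 0.47 at day 0, within the spot error, so that direction is not settled. At day 10 it was 0.85 ± 0.48. The second Myh11 probe was not well above background on any of the 4.

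Myl9, the regulatory light chain of smooth muscle and non-muscle myosin, ran opposite to the calponins in CD45-negative cells. Its level there was 0.83 ± 0.15 at day 0 and -2.09 ± 0.17 at day 10, against -2.51 ± 0.21 and -1.67 ± 0.16 in LSK cells. A single array, CD45-negative at day 0, stood apart from the other 3. The difference between days was -2.91 ± 0.22 in CD45-negative cells, 7.52-fold lower at day 10, and 0.84 ± 0.26 in LSK cells, 1.79-fold higher. CD45-negative cells exceeded LSK cells 10.1-fold at day 0 and were below them by 0.41 ± 0.23 at day 10.

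**Figure D2:**
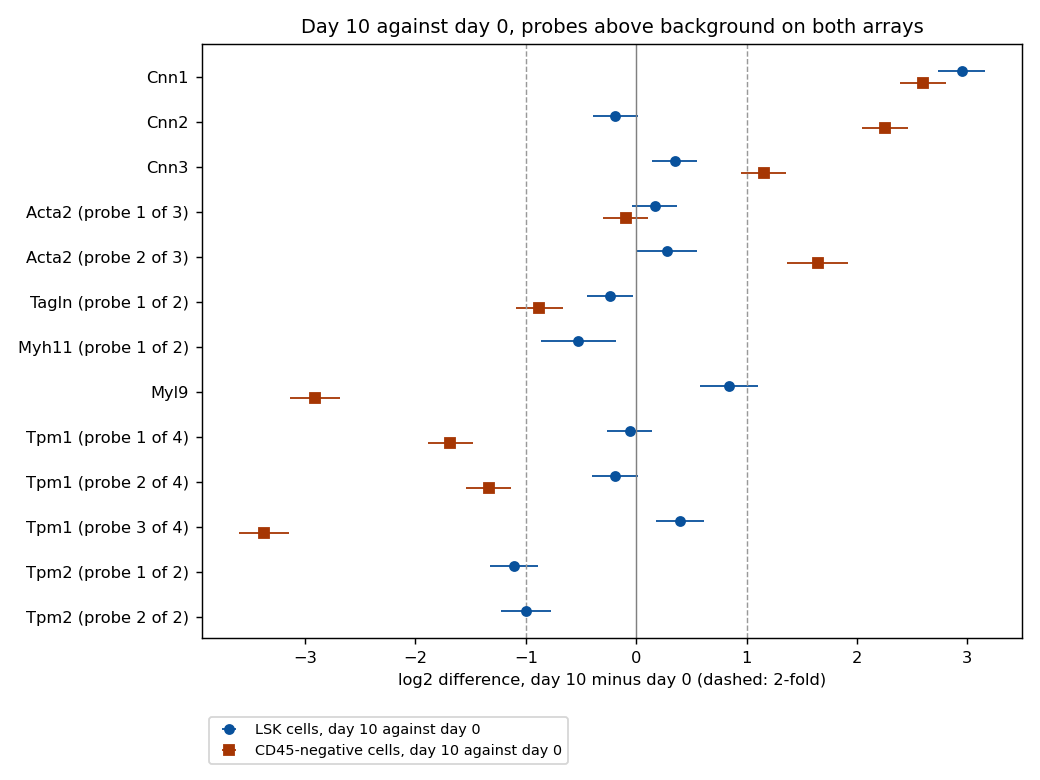
Difference in log2 level between day 10 and day 0 for the member probes above background on both arrays, for LSK cells (circles) and CD45-negative cells (squares), with the combined spot error as bars and dashed lines at 2-fold. In CD45-negative cells the calponins lie at 1.16 to 2.60, and Myl9 and the Tpm1 probes lie at -3.37 to -1.34.

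The tropomyosins were lower at day 10 in CD45-negative cells at each probe that could be compared. The brightest probes of Tpm1 and Tpm2 overlap in the coding sequence that the 2 genes share. They are shown whole, with capitals for the 27 of 33 overlapping bases that are identical (81.8%).
Tpm1 probe 1: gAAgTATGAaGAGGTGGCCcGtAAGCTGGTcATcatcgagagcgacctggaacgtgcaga
Tpm2 probe 1: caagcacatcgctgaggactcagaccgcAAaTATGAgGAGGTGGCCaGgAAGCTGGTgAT

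Tpm1, alpha tropomyosin, read 1.16 ± 0.14 and 1.1 ± 0.14 in LSK cells at days 0 and 10 with this probe, and 1.37 ± 0.14 and -0.31 ± 0.15 in CD45-negative cells. CD45-negative cells at day 10 were the low array. The difference between days was -0.06 ± 0.20 in LSK cells and -1.68 ± 0.21 in CD45-negative cells, 3.21-fold lower. The second probe read -0.14 ± 0.15 and -0.33 ± 0.15 in LSK cells and 1.95 ± 0.14 and 0.61 ± 0.14 in CD45-negative cells, with differences of -0.19 ± 0.21 and -1.34 ± 0.20. The third, annotated to other transcript variants, read -1.34 ± 0.16 and -0.94 ± 0.15 in LSK cells and 1.01 ± 0.15 and -2.36 ± 0.17 in CD45-negative cells, with differences of 0.39 ± 0.21 and -3.37 ± 0.23. By these 2 probes, as by the brightest, CD45-negative cells at day 0 were the highest array. The fourth was not well above background on any array. The probes disagreed on which population was higher at day 10. By the brightest probe LSK cells were higher by 1.41 ± 0.21, by the second lower by 0.95 ± 0.21, and by the third higher by 1.42 ± 0.23.

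Tpm2, beta tropomyosin, was highest in LSK cells at day 0. Its brighter probe read -0.81 ± 0.15 and -1.91 ± 0.16 in LSK cells at days 0 and 10 and -2.61 ± 0.25 in CD45-negative cells at day 0, and was not well above background in CD45-negative cells at day 10. LSK cells were 2.16-fold lower at day 10, a difference of -1.11 ± 0.22, which was -0.72 and short of 2-fold with normexp background correction, and the second probe gave -1.0 ± 0.23. CD45-negative cells were at least 3.08-fold lower at day 10. LSK cells exceeded CD45-negative cells 3.50-fold at day 0, a difference of 1.81 that was 0.51 with normexp, and at least 5.0-fold at day 10. Since the brightest Tpm1 and Tpm2 probes share bases, each may carry signal of the other gene, and this was not tested.

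Counted together, 1 of 9 members (Cnn1) passed 2-fold upwards and 1 (Tpm2) downwards in LSK cells at day 10. Among all genes, 1.49% passed it upwards and 2.23% downwards. The median of the members was -0.06 there, against -0.01 for all genes. In CD45-negative cells 3 of the 7 measured members were higher and 2 (Myl9, Tpm1) lower, beside 25.6% and 17.5% of all genes. Their median was -0.10, against 0.28 for all genes. At day 0, 2 of 8 members (Cnn2, Tpm2) were at least 2-fold higher in LSK than in CD45-negative cells and 2 (Cnn1, Myl9) lower, beside 23.3% and 18.8% of all genes. At day 10, 1 of 7 (Tpm1) was higher in LSK cells and 0 lower, beside 11.5% and 13.5%. The comparisons share arrays, so these counts are not independent of each other.

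How the calponins stood beside the rest of the contractile machinery was read from a list of 38 further genes of smooth muscle and the actin cytoskeleton. In LSK cells 0 of the 28 measured passed 2-fold upwards and 1 downwards, with a median of -0.07. The lower one was Actn1, an actin crosslinker (-1.05), followed by the myosin light chain Myl12a (-0.57) and the actin binder Synpo2 (-0.45). The highest were Mrtfb, a coactivator of serum response factor (0.56), the small GTPase Rhoa (0.26) and the actin crosslinker Flna (0.22). Mrtfb was dim, at -3.29 ± 0.26 on day 0 and -2.73 ± 0.18 on day 10. Its other probes were not well above background in LSK cells at day 10. The Cnn1 difference of 2.95 was the largest among all 12088 genes, so that it exceeded those of all 28 follows from that rank.

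In CD45-negative cells 10 of 27 measured list genes were at least 2-fold higher and 5 lower (37.0% and 18.5%), beside 25.6% and 17.5% of all genes, so the lower share is close to that of all genes. The list's median was 0.72 and that of all genes 0.28. The non-muscle tropomyosins Tpm4 (2.07) and Tpm3 (1.39) were higher at day 10, where Tpm1 and Tpm2 were lower. Smtn, the actin-binding protein smoothelin (1.88), Tagln2 (1.81), the cytoplasmic gamma actin Actg1 (1.72, from its second probe because a spot of the brightest was an outlier) and Flna (1.49) were also higher. So were Mrtfa, listed on the array as Mkl1 (1.43), its partner Srf, serum response factor (1.24), Actn1 (1.19) and Actg2, enteric gamma actin (1.0). Mylk, the kinase that phosphorylates the regulatory light chain, fell short of 2-fold at 0.96. The lower genes were Synpo2 (-2.49), Myh10, the non-muscle myosin heavy chain IIB (-2.48), Tgfb1i1, the focal adhesion protein Hic-5 (-1.75), Actn4 (-1.39) and Actb (-1.17). Synpo2 rests on its brightest probe in both populations, since its other probes were not well above background on any array. Aoc3, an amine oxidase of vascular smooth muscle, was above background at day 0 alone and at least 8.28-fold lower at day 10.

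Of the 38 list genes, 9 had no probe well above background on any array. These were Cald1, Des, Itga8, Kcnmb1, Lmod1, Myocd, Npnt, Ppp1r14a and Tagln3. Myocd, myocardin, is the coactivator that drives the smooth muscle program, and Des, Lmod1 and Kcnmb1 are genes of differentiated smooth muscle. In CD45-negative cells at day 10, where Cnn1 was highest, Myh11, Myocd, Des, Lmod1 and Kcnmb1 were all not well above background. On the same array Acta2 at its brightest probe, Tagln, Actg2, Smtn and Mylk were well above background. They were so on every other array too, LSK cells included, so their detection is not particular to this array. Smtn stood at 0.89 and 0.69 in LSK cells at days 0 and 10, against 0.18 here. Whether either sort held smooth muscle cells was not tested.

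**Figure D3:**
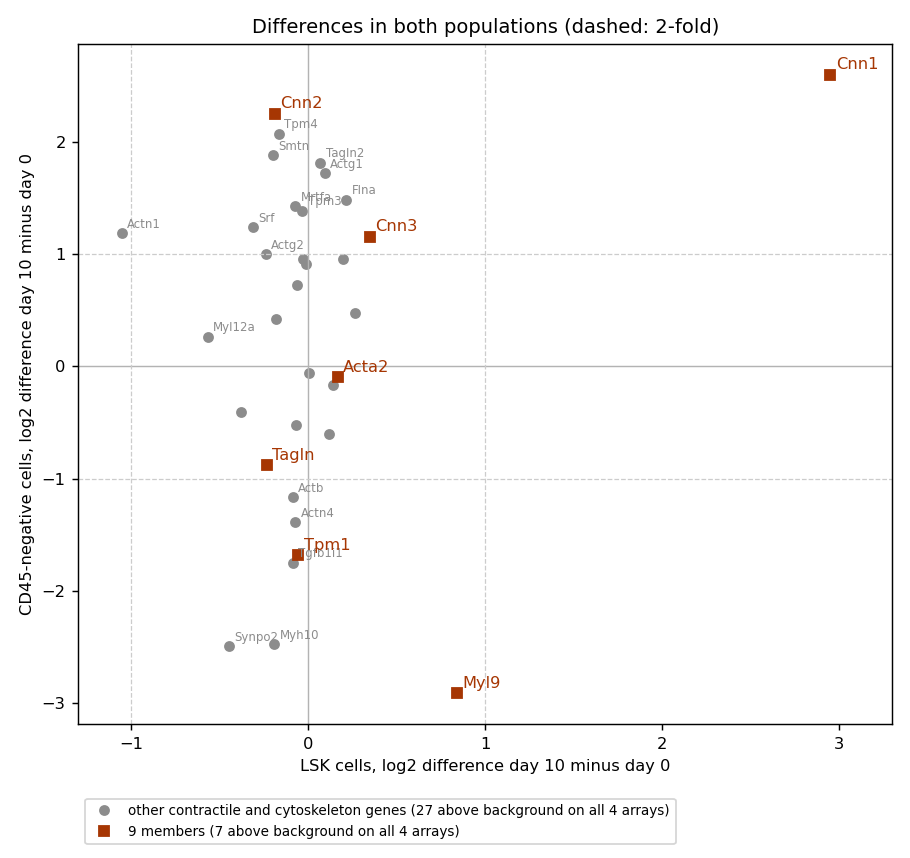
Difference between day 10 and day 0 in LSK cells (horizontal axis) and CD45-negative cells (vertical axis), in log2 units, for 7 members (squares) and 27 other contractile and cytoskeleton genes (grey circles) above background on all 4 arrays; dashed lines mark 2-fold. Cnn1 stands alone at the upper right, at 2.95 and 2.60, and Myl9 at the lower right, at 0.84 and -2.91.

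Markers of other cell types differed between days in the CD45-negative sort. Among all genes there, 25.6% passed 2-fold upwards and 17.5% downwards. Each of 8 lists held 10 markers, and signals were summed relative to the 75th percentile of the array. Such a sum adds probes of unlike brightness and leans on the brightest of them. Of the pericyte markers, 2 were measured at both days (Pdgfrb and Notch3) and both were lower, and the summed signal went from 1.20 to 0.640. No probe of Abcc9, Cspg4, Des, Higd1b or Rgs5 was well above background on any array. Reticular and fibroblast markers were lower for 6 of 6 measured, with a sum of 118 at day 0 and 10.7 at day 10. Skeletal muscle markers were lower for 7 of 7, from 143 to 26.0.

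Blood cell markers differed unevenly. Erythroid markers were lower for 10 of 10, from 1879 to 104. Megakaryocyte and platelet markers, a cell type rich in contractile proteins, were lower for 4 of 6 and higher for 1, from 31.9 to 5.75. T and NK cell markers were higher for 6 of 6, from 6.30 to 180. Monocyte and macrophage markers were higher for 2 of 8 and lower for 1, from 155 to 208, shares close to those of all genes. Endothelial markers were higher for 2 of 6 and lower for 0, from 6.24 to 9.64, beside 25.6% and 17.5% of all genes. The higher share (33.3%) is near that of all genes. Ptprc, which encodes CD45, was itself well above background in the CD45-negative sort, at 3.10 ± 0.14 on day 0 and 5.58 ± 0.14 on day 10. The same probe read 4.18 ± 0.14 and 4.25 ± 0.14 in LSK cells. At day 10 the CD45-negative array was thus 2.51-fold higher than the LSK array, and by the other Ptprc probes 1.49-fold and 1.16-fold higher. The part of the listed cell types in the calponin, Myl9 and tropomyosin differences was not tested.

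The same lists were read in LSK cells, where 1.49% of all genes passed 2-fold upwards and 2.23% downwards. Monocyte and macrophage markers were higher for 2 of 8 and lower for 0, from 51.3 to 96.7. Their median difference was 0.73, against 0.53 in CD45-negative cells. Most of their sum in LSK cells was Lyz2, at levels of 5.46 on day 0 and 6.41 on day 10, a difference of 0.95 and short of 2-fold. Megakaryocyte and platelet markers were lower for 2 of 8, from 34.2 to 18.1, and pericyte markers were beyond 2-fold for 0 of 2, from 3.32 to 3.02. Endothelial markers were lower for 1 of 7, from 32.5 to 33.4, and skeletal muscle markers were beyond 2-fold for 0 of 7, from 51.9 to 59.7. Erythroid markers were lower for 2 of 6, from 15.4 to 8.25, and T and NK markers higher for 1 of 9 and lower for 3, from 99.8 to 82.1. Reticular and fibroblast markers were higher for 2 of 4, from 1.22 to 1.86, with a median difference of 0.68, against -3.32 in CD45-negative cells. The part of any of these cell types in the Cnn1 difference was not tested.

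**Figure D4:**
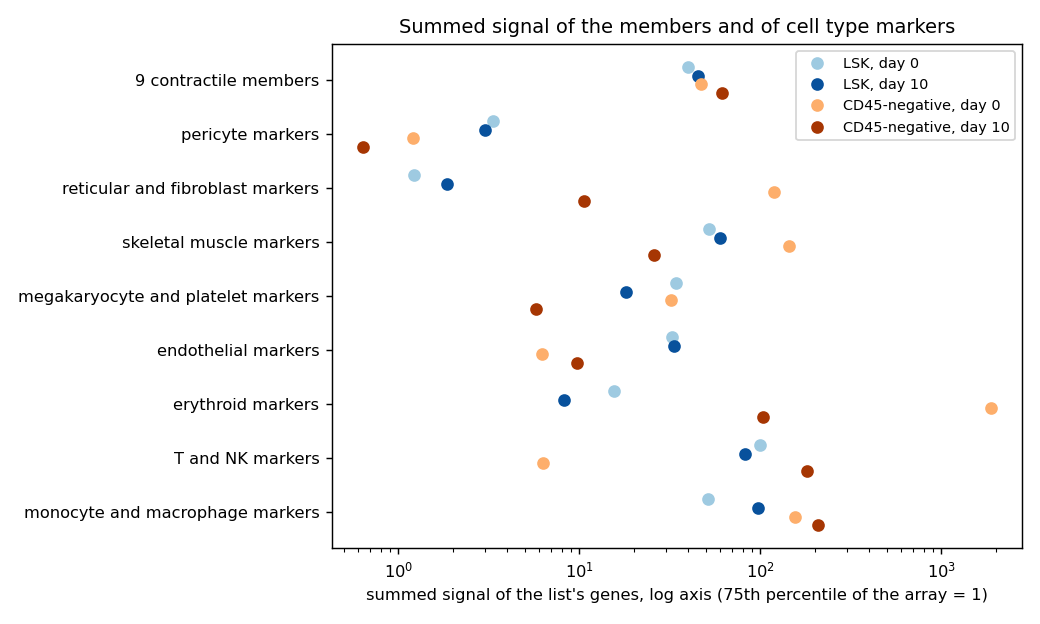
Summed signal of the 9 members and of 8 lists of 10 cell type markers on each of the 4 arrays, on a log axis where 1 is the 75th percentile of the array. The members' sum ran from 39.9 to 61.3, while the erythroid sum in CD45-negative cells went from 1879 at day 0 to 104 at day 10. A sum leans on its brightest probes, and among the members the brightest was Acta2 on every array.

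The genes whose pattern over the 4 arrays was most like that of a member were found by the root mean square distance between centred levels, among 10523 genes above background on all arrays. For Cnn1 they were Sirpb1a, a receptor of myeloid cells (0.334), Socs2, an inhibitor of cytokine signalling (0.427), and Ngp, a granule protein of neutrophil precursors (0.455). Cnn2 had closer companions in Ckap4 (0.0449), Rgs8 (0.0600) and Pkp4 (0.0694). Myl9 was nearest to the spindle gene Aspm (0.132), the histone gene H4f16 (0.143) and Parp16 (0.143). For Tpm1 they were Cyp17a1 (0.0638), Zmat4 (0.0836) and Epn3 (0.0902). Those of Cnn3 were 4921524J17Rik, Clock and S100a13, those of Acta2 Triap1, Fbrsl1 and Zfp276, and those of Tagln Rnf8, Capn10 and Kmt5a. Over 4 arrays such likeness is only a description.

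The range of a member over the 4 arrays was 3.65 for Cnn1, 3.34 for Myl9, 2.25 for Cnn2, 1.68 for Tpm1, 1.16 for Cnn3, 0.90 for Acta2 and 0.88 for Tagln, beside a median of 1.28 over all 10523 genes. The ranges of Cnn1 and Myl9 lay at percentiles 95.9 and 94.6 of all genes, and those of Cnn3, Acta2 and Tagln below the median.

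Scaling decided several directions in CD45-negative cells. The spike-in control spots shifted their difference between days by 3.15 relative to the 75th percentile, against -0.19 in LSK cells, and moved the median of all genes to 3.44. On that scale Cnn1, Cnn2 and Cnn3 differed by 5.75, 5.41 and 4.31. Myl9 (0.24) and Tpm1 at its brightest probe (1.47) then changed sign. The lower levels of these 2 probes hold relative to other genes but not relative to the spike-in spots. The difference of the third Tpm1 probe (-3.37 ± 0.23) is larger than the shift, so by that probe the sign does not change. Acta2 (3.06) and Tagln (2.27) were then higher at day 10 as well. The shift is also larger than the lower differences of Synpo2, Tgfb1i1, Actn4 and Actb, and of Myh10 at its brightest probe. The second Myh10 probe differed by -3.72 ± 0.22, which is larger than the shift. Aoc3 has only a lower bound, so it is not placed against the shift. Under the spike-in shift 98.6% of genes beyond 2-fold in CD45-negative cells were higher at day 10, and under a median shift 77.3%, against 59.4% as reported. In LSK cells the spike-in shift gave 18.5% and the median shift 51.8%, against 40.1%. Of genes beyond 2-fold between populations, 55.3% were higher in LSK cells at day 0 and 46.1% at day 10, and the spike-in shift made these 93.8% and 1.08%. At day 10 the median shift gave 18.7% and cyclic loess 34.6%. The median shift also moved the median of all genes to 0.75 between days in CD45-negative cells and to -0.48 between populations at day 10. Of the 11 alternatives, 7 could change the value of Cnn1 or Cnn2, which have 1 probe each. Under these 7 Cnn1 stayed above 2-fold, from 2.16 to 3.04 in LSK cells and from 2.24 to 5.75 in CD45-negative cells, and Cnn2 did in CD45-negative cells, from 2.13 to 5.41.

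**Figure D5:**
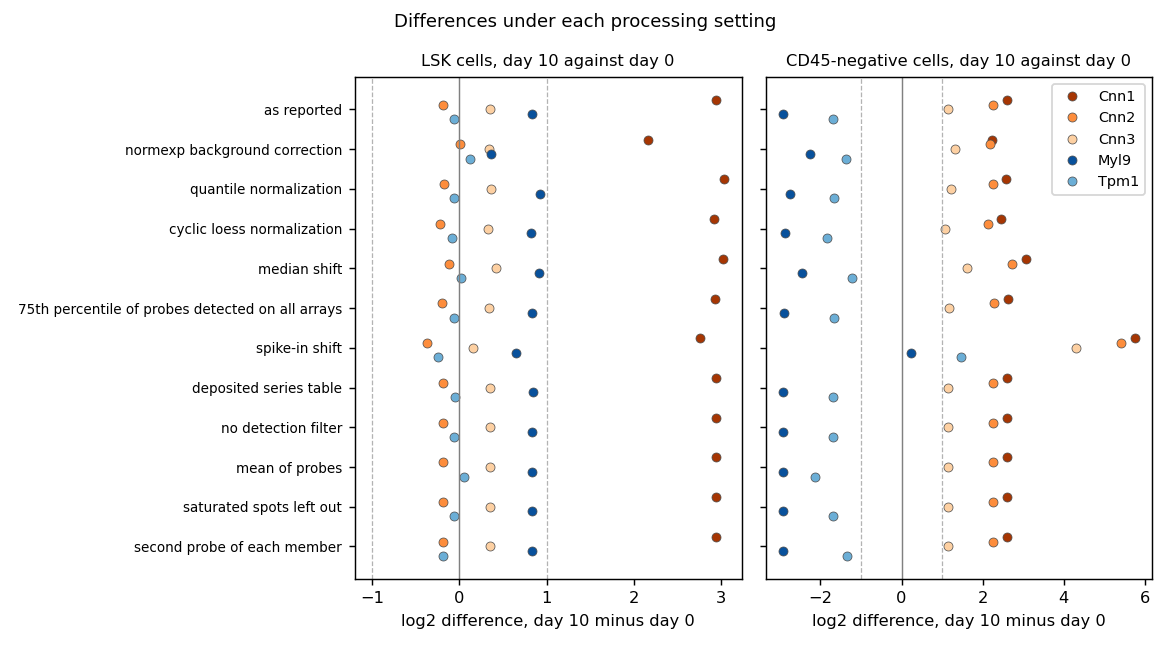
Difference between day 10 and day 0 in log2 units for Cnn1, Cnn2, Cnn3, Myl9 and Tpm1 under each of 12 processing settings, with dashed lines at 2-fold. Cnn1 lies at 2.16 to 3.04 in LSK cells, and in CD45-negative cells the spike-in shift moves Myl9 from -2.91 to 0.24 and Tpm1 from -1.68 to 1.47.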

How the data were processed

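Levels came from 4 Agilent 1-colour mouse arrays on 1 slide. Per the labels, 500 ng of total RNA per sample was copied from an oligo-dT primer and given the Cy3 dye. Per the submitters' processing notes and file headers, the authors used Agilent Feature Extraction 10.5.1.1, and the design's build is mm9. The deposited spot files hold intensity values: a mean signal, a local background, and a processed signal with its error, background-subtracted by the scanner software. Flags for detection, saturation and outlier spots are other deposited columns. The deposited series table holds log2 values scaled by the authors so that they differ from the levels here by at most 0.0101 for members.

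From the processed signal, log2 was taken and the array's 75th percentile subtracted, after control and outlier spots were left out. Each member probe had 1 spot. A fold was taken where a probe was well above background on both arrays, otherwise as a lower bound. Each group is 1 sample, so no test was made. A fit of population and day as additive terms was left out. Counting was tested on simulated data. The alternatives were limma 3.58.1 normexp (offset 50), quantile and cyclic loess normalization, 3 other shifts, the series table, no detection filter, other probe rules and saturated spots left out. Members, gene lists, markers and alternatives were chosen with earlier results of these data known, and the use of a second probe after the members' values were seen. Named genes were all members, fixed kin and regulators, the 3 largest list differences each way between days, and the 3 most like patterns. R 4.3.3 and Python 3.11.15 were used. Proteins and probe positions in the genome were not used here.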

Additional observations from a re-analysis of the deposited data

Results flagged for a closer look

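For 3 probes the differences between days had opposite signs in the 2 populations and lay at least 2-fold apart. With 1 array per group the contrast was not tested. Cnn2 differed by -0.19 in LSK cells and by 2.25 in CD45-negative cells, a contrast of -2.44, although the LSK value is no larger than the spot error and was 0.0059 with normexp, so its direction is not settled. Myl9 differed by 0.84 in LSK cells and by -2.91 in CD45-negative cells, a contrast of 3.75, and by 0.24 in the latter under the spike-in shift. The third Tpm1 probe, annotated to other transcript variants, differed by 0.39 in LSK cells and by -3.37 in CD45-negative cells, a contrast of 3.77.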

How the results depend on the processing

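No paired analysis was possible because each group has 1 array, and for the same reason no replicate could be left out. Of the counts of members beyond 2-fold, 69 of 88 kept within 1.5 times their reported value under another setting and 19 did not. Leaving out saturated spots changed no member's value, so it kept these counts by construction. With normexp, 0 members were lower at day 10 in LSK cells, and at day 0 1 was higher and 1 lower in LSK than in CD45-negative cells. With the median shift, 0 were higher and 2 lower in LSK cells at day 10. With the percentile over detected probes, 1 was lower in LSK cells at day 0. With the spike-in shift, 6 were higher and 0 lower at day 10 in CD45-negative cells. The same shift gave 5 higher and 1 lower in LSK cells at day 0, and 0 higher and 6 lower at day 10. Without the detection filter, 4 were lower at day 10 in CD45-negative cells and 2 higher in LSK cells at day 10. With the mean of probes, 0 were higher and 1 lower in LSK cells at day 10. With the second probe of each member, 0 were lower between days in LSK cells, and at day 10 0 were higher and 1 lower in LSK than in CD45-negative cells. Counted over all genes, normexp gave 59 higher and 67 lower in LSK cells, against 180 and 269 as reported.

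Among 341 differences of single members under the alternatives, 311 kept their side of 2-fold, and 24 changed sign, of which 19 were under 2-fold as reported. Part of the 341 could not change. Dropping the detection filter or saturated spots altered 0 of 31 values each. The mean of probes and the second probe altered 9 of 31 each. The spike-in shift gave 12 of the 24. The 5 that were past 2-fold as reported were, with the spike-in shift, Myl9 (0.24) and Tpm1 (1.47) between days in CD45-negative cells, Cnn1 at day 0 between populations (0.57) and Tpm1 at day 10 (-0.30), and, with the second probe, Tpm1 at day 10 (-0.95). Signal limits Myh11, Tpm2 and the dim probes, which lie near background. Spots of the same probe on 1 array varied with an SD of 0.156 to 0.205, over 30 to 36 probes that had at least 3 spots.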
